A study of Mus musculus with 43 samples.

Results

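The genes described here are 10 that serve antigen presentation: the class I heavy chains H2-K1 and H2-D1, their light chain B2m, the peptide transporter genes Tap1 and Tap2, the loading factor Tapbp, the immunoproteasome subunits Psmb8, Psmb9 and Psmb10, and Cd74, the invariant chain of class II molecules. They were taken by gene symbol. All 10 had a row in both deposited tables, among 24327 symbols listed in FPKM and 25080 in TPM. All 10 also had a mean of at least 1 in each experiment and were tested, among 10882, 11216 and 12132 genes in the siRNA, CRISPRa and drug experiments.

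Polyadenylated RNA of mouse embryonic fibroblasts was measured in 43 libraries, in a study that altered the gene Son or treated the cells with drugs. The Son protein sits in nuclear speckles, binds RNA and serves splicing. The siRNA experiment had 4 groups of 4 libraries, namely cells given a control siRNA and cells given one that targets Son, both in the solvent DMSO and in tunicamycin, an inhibitor of N-glycosylation that provokes stress of the endoplasmic reticulum. The CRISPRa experiment had 4 groups of 3 libraries, with a control guide RNA (sgRNA) or a Son sgRNA for CRISPR activation, again in DMSO or tunicamycin. The drug experiment used wild-type cells in 5 groups of 3 libraries, kept for 24 h in DMSO or in a drug. Nintedanib and proflavine hemisulfate were given at 3 µM, and ponatinib and pyrvinium pamoate at 1 µM. Nintedanib and ponatinib are inhibitors of tyrosine kinases, proflavine is an acridine that binds DNA, and pyrvinium is an anthelmintic. The sources used here do not give tunicamycin's dose and duration, the mouse strain, or whether the CRISPRa cells are a single clone. Nor do the labels say that libraries of a group came from separate cultures, so every p rests on the spread among libraries, which may be technical.

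Class I molecules show peptides from inside the cell to cytotoxic T cells. The proteasome cuts proteins into peptides, the TAP transporter carries these into the endoplasmic reticulum, and tapasin (Tapbp) holds the empty heavy chain and B2m next to TAP until a peptide binds. Interferons raise these genes in fibroblasts and replace the catalytic proteasome subunits Psmb5, Psmb6 and Psmb7 by Psmb8, Psmb9 and Psmb10, while Cd74 is best known from antigen-presenting cells, where it guards the groove of class II molecules.

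Son level was first set against the labels. With the control siRNA in DMSO it was 42.6 to 44.9 FPKM and with the Son siRNA 20.8 to 23.1 FPKM. With the Son sgRNA label in DMSO it was 51.9, 44.6 and 29.8 FPKM, against 46.4 to 48.3 FPKM with the control sgRNA, so the label of activation is not borne out by the Son level (log2 fold change -0.20, SE 0.16, adjusted p 0.383). Library C of that group, with the lowest Son, held the highest level of its group for all 10 genes and the highest of all 12 CRISPRa libraries for 6 of them, so results that rest on it are given with and without it. The share of all genes that were highest in that library was not counted. Psmb5, Psmb6 and Psmb7 also had their highest CRISPRa levels in that group, at 183.6, 277.7 and 267.2 FPKM. The FPKM total of a CRISPRa library ran from 380432 to 497952. The sum over 9 fibroblast markers was lower in tunicamycin than in DMSO, and lower with every drug than in DMSO. With the control siRNA it went from 2081 to 2147 FPKM in DMSO to 1191 to 1507 FPKM in tunicamycin, and with the Son siRNA from 2010.5 to 2087 FPKM to 1429.8 to 1538 FPKM. With the control sgRNA it went from 1513 to 1636 FPKM to 1129 to 1189 FPKM, and with the Son sgRNA label from 1347 to 1465 FPKM to 854 to 967 FPKM. Among these markers Thy1 was listed at 0 in all CRISPRa libraries. Of the 9, 5 reached a mean of 1 in the siRNA, 6 in the CRISPRa and 7 in the drug experiment. The sum over 5 epithelial markers was also lower in tunicamycin than in DMSO. It fell from 165 to 210 TPM in DMSO to 46.8 to 56.1 TPM with ponatinib and 39.5 to 53.5 TPM with pyrvinium. With nintedanib and proflavine it overlapped DMSO. The leukocyte marker Ptprc did not pass 0.0467 TPM or 0.00587 FPKM in any library. It belongs to the 10 macrophage and monocyte markers summed below. Their sum was higher with every drug than in DMSO. In these bulk samples fewer cells of a type and less RNA per cell cannot be told apart. No file gives read counts, so depth is unknown.

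Of the 10 genes, 7 lie in the major histocompatibility complex on chromosome 17, namely all but B2m on chromosome 2, Psmb10 on chromosome 8, and Cd74. H2-K1 spans positions 33996012 to 34000619 and H2-D1 35263094 to 35267497 (RefSeq, GRCm38.p6). Psmb9, Tap1, Psmb8 and Tap2 follow one another between 34182030 and 34216321. RefSeq promoter windows, from 250 bases before to 50 after the start, were at hand for 8 of the 10 genes. The H2-K1 window, at 34000298 to 34000597 on the minus strand, lies inside the H2-K1 span. It was thus set by a start other than the outer end of that span. The stretches that carry letters of known interferon or kappaB sites are shown here because the heavy chains and B2m fell together with the Son siRNA and rose together with 3 of the 4 drugs, as described below. The other class I and immunoproteasome genes fell with the Son siRNA as well, with or without a match. They were searched on both strands for GAAANNGAA and, in an added search chosen after reading the sequences, GAANNGAAA (both cores of the interferon-stimulated response element), for TTCNNNGAA (the gamma-activated site) and for the kappaB motif. Capitals mark the matches, with 20 bases on either side.
H2-K1, chr17:34000409-34000478, minus strand: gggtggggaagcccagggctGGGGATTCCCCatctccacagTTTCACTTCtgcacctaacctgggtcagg
H2-D1, chr17:35262903-35262972, plus strand: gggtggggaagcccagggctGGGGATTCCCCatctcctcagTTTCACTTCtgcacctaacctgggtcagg
B2m, chr2:122147528-122147590, plus strand: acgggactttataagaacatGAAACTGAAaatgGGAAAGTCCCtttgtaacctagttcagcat
Psmb8, chr17:34198078-34198126, plus strand: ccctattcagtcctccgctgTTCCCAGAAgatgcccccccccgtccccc

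The H2-K1 and H2-D1 stretches were identical in 69 of 70 bases, and their windows shared a run of 47 bases. Such near-identical copies can share reads, and how the authors' tools split them is not given in the sources used here, so the levels of these heavy chains are uncertain against each other. A kappaB match lay in the windows of B2m, H2-K1 and H2-D1, and in 4.35% of 27025 promoter windows. GAANNGAAA was found in H2-K1 and H2-D1 and in 7.56% of windows, GAAANNGAA in B2m and in 8.57%, and TTCNNNGAA in Psmb8 and in 8.47%. The windows of Tap1, Tapbp, Psmb9 and Psmb10 held no match. Matches are letters only and show no binding.

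Psmb9 and Tap1 are read in opposite directions from starts at 34187330 and 34187556, with 225 bases between them. The stretch between the starts is shown because both genes share it and yet differed in several comparisons below. No searched motif matched there.
Psmb9 to Tap1, chr17:34187331-34187555, plus strand: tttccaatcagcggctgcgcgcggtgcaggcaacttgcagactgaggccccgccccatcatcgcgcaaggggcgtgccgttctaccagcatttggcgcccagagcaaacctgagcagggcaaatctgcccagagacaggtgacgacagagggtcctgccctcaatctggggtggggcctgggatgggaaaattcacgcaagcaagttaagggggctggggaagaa

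The Son siRNA was followed by lower levels of all 9 class I and immunoproteasome genes. In DMSO the Son siRNA lowered each of them, by 0.26 (B2m) to 0.61 (Tap1) on the log2 scale, and Cd74 was the one gene that rose. Calls here and below are limma tests of log2(value + 1), a scale that understates changes of low genes, at a Benjamini-Hochberg adjusted p under 0.05 over all genes. Of all genes 20.0% were called higher and 16.1% lower in that comparison. The median log2 fold change was -0.45 for the 10 genes and 0.03 for all genes.

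Heavy chain H2-K1 was at 507, 639.9, 509.8 and 577 FPKM with the control siRNA and at 401, 382, 422 and 432 FPKM with the Son siRNA. Every Son siRNA library thus lay below every control library, and the log2 fold change was -0.44 (SE 0.08, adjusted p 0.000368). Its neighbour by sequence, H2-D1, went from 448 to 547 FPKM down to 331 to 365 FPKM (-0.47, SE 0.07, adjusted p 0.000108). B2m, the light chain of every class I molecule and the most abundant of the 10, was 1565 to 1939 FPKM in control libraries and 1395 to 1458 FPKM with the Son siRNA (-0.26, SE 0.07, adjusted p 0.00702). This B2m call was lost under quantile normalization (-0.17, adjusted p 0.0799).

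Tap1, a chain of the peptide transporter, had the largest fall. Its levels were 36.1, 43.1, 38.3 and 40.9 FPKM with the control siRNA against 24.5, 22.2, 28.9 and 27.1 FPKM with the Son siRNA. The gap between the groups was wider than either group's range (log2 fold change -0.61, SE 0.08, adjusted p 1.61e-05). Its partner chain Tap2 fell less (-0.27, SE 0.06, adjusted p 0.00351), from 17.3 to 21.1 FPKM to 14.3 to 17.8 FPKM, and here the groups overlapped. Tapbp fell by 0.33 (SE 0.05, adjusted p 8.33e-05), from 222 to 248 FPKM to 177 to 198 FPKM.

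All immunoproteasome subunits fell. Psmb8 was at 40.3, 48.8, 42.7 and 44.2 FPKM with the control siRNA and at 27.4, 25.8, 32.2 and 29.5 FPKM with the Son siRNA. No Son siRNA library reached the control range (-0.60, SE 0.08, adjusted p 3.39e-05). Psmb10 went from 42.3 to 47.2 FPKM to 29.7 to 34.7 FPKM (-0.50, SE 0.05, adjusted p 9.7e-07), the smallest adjusted p of the 10. Psmb9, the least abundant of these subunits, went from 10.5 to 14.3 FPKM to 7.71 to 9.71 FPKM (-0.46, SE 0.12, adjusted p 0.00687).

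Cd74 moved the other way. It was at 16.5, 20.8, 19.1 and 20.6 FPKM with the control siRNA and at 25.8, 28.1, 28.2 and 27.0 FPKM with the Son siRNA in DMSO. Each Son siRNA library was above all control libraries (0.48, SE 0.09, adjusted p 0.000365).

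In tunicamycin the Son siRNA again lowered the same 9 genes, where 30.6% of all genes were called higher and 20.4% lower. The falls ran from 0.32 (Tapbp) to 0.71 (Tap1, from 37.0 to 42.2 FPKM down to 22.02 to 26.9 FPKM, adjusted p 1.69e-06). The groups overlapped for none of the 9, but the share of all genes without overlap was not counted. Cd74 did not differ beyond its spread, with 28.5, 29.7, 31.7 and 37.7 FPKM against 33.5, 29.5, 35.8 and 28.4 FPKM (log2 fold change -0.0019, SE 0.09, adjusted p 0.988). Psmb8 fell by 0.59 (SE 0.08, adjusted p 1.92e-05) and H2-D1 by 0.49 (SE 0.07, adjusted p 3.66e-05).

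**Figure D1:**
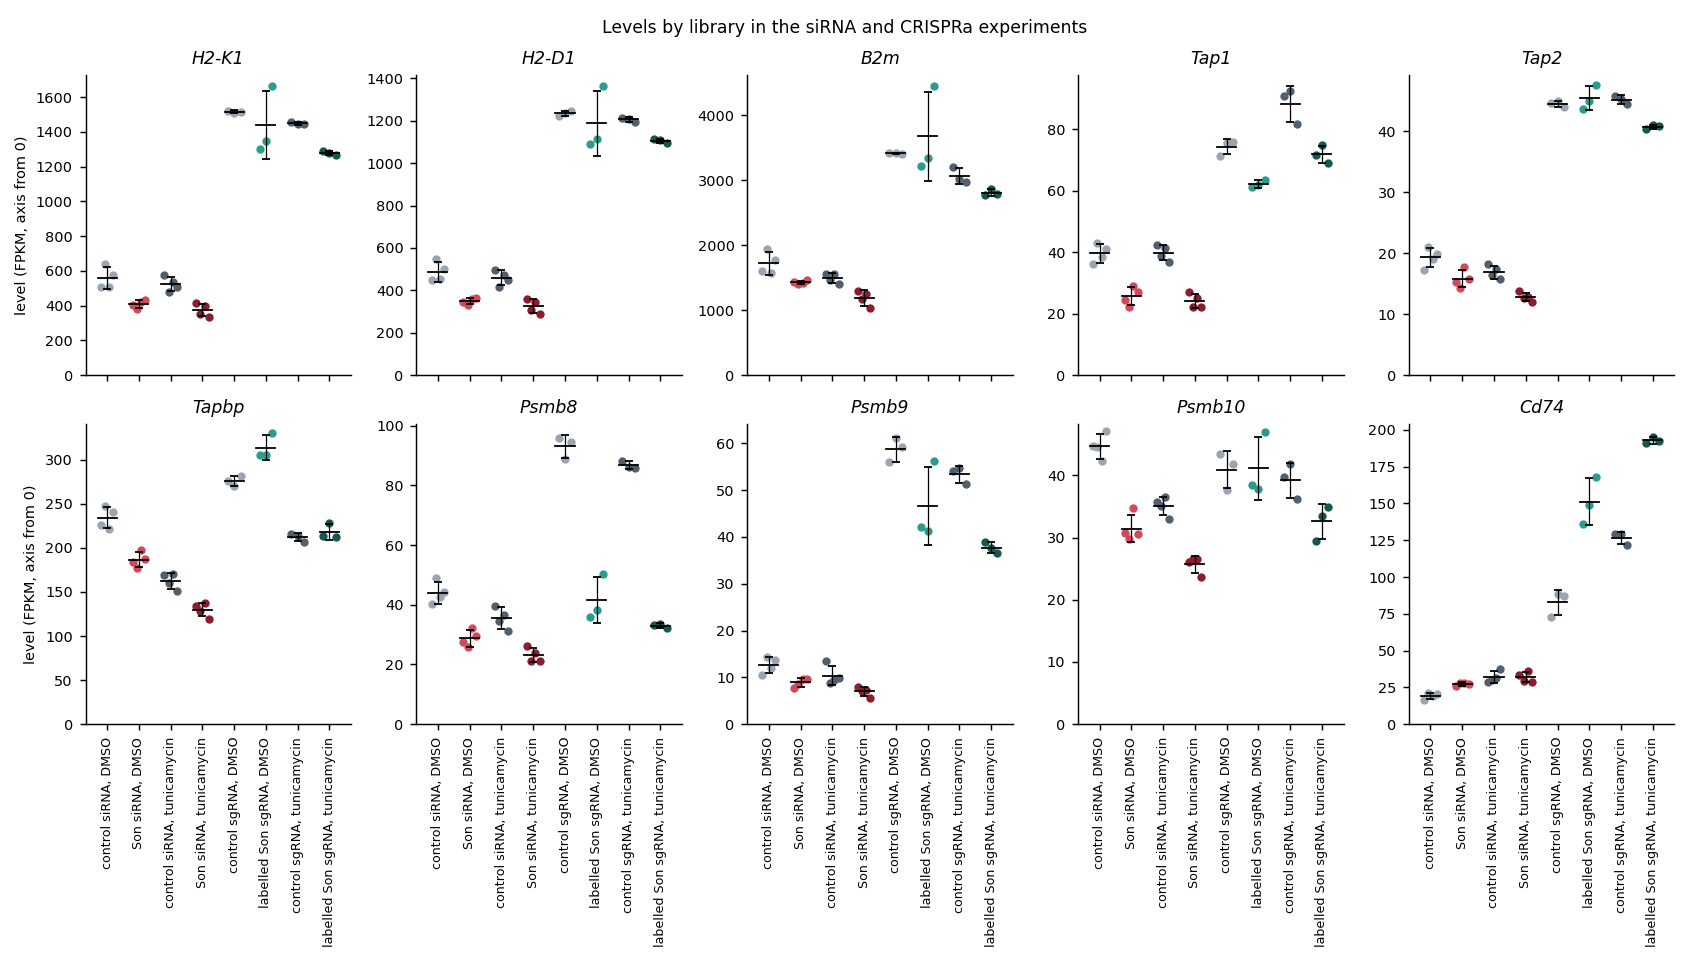
Levels in FPKM (linear axis from 0) of the 10 genes in the 8 groups of the siRNA and CRISPRa experiments. Each point is a library, the bar is the group mean and the whisker 1 SD. Psmb8 stands at 35.9 to 50.3 FPKM in DMSO with the Son sgRNA label and at 88.7 to 96.0 FPKM with the control sgRNA, and Cd74 is highest, at 191 to 195 FPKM, in the labelled libraries in tunicamycin.

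Of the 10 genes tunicamycin lowered 5 with the control siRNA, namely B2m, Tap2, Tapbp, Psmb8 and Psmb10, a share near the 42.4% lower among all genes. It raised Cd74, where 26.5% of all genes were higher, and left 4 genes, the heavy chains among them, without a call. After median-ratio scaling 3 of the 10 were called lower. The fibroblast marker sum was lower in tunicamycin too, and its part in these values was not tested. Median-ratio scaling moved the share of higher among all called genes from 38.5% to 49.4%. Tapbp fell furthest, from 226, 248, 222 and 241 FPKM in DMSO to 169, 160.1, 170.1 and 151 FPKM (-0.53, SE 0.05, adjusted p 7.04e-08), with no overlap. Psmb10 fell by 0.34 (SE 0.05, adjusted p 9.79e-06) and Psmb8 by 0.30 (SE 0.08, adjusted p 0.00363). Cd74 rose from 16.5 to 20.8 FPKM to 28.5 to 37.7 FPKM (0.70, SE 0.09, adjusted p 1.7e-06). The B2m value became 0.064 under quantile normalization, and its call (-0.20, adjusted p 0.0164) was lost without control DMSO library B (adjusted p 0.0695) or control tunicamycin library D (0.0515), and the Tap2 call (-0.18, adjusted p 0.0195) without either of these (0.074 and 0.0631) or without control DMSO library D (0.0511). Psmb9 (-0.26, adjusted p 0.0568) was called without control DMSO library A (0.0196), control tunicamycin library A (0.00389) or Son tunicamycin library D (0.0414).

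With the Son siRNA, tunicamycin lowered 6 genes, namely B2m, Tap2, Tapbp, Psmb8, Psmb9 and Psmb10, and raised Cd74, where 26.1% of all genes were higher and 41.1% lower. Tapbp fell by 0.52 (SE 0.05, adjusted p 1.21e-07). Cd74 rose by 0.21 (SE 0.09, adjusted p 0.0398), a call lost when a library was left out in 5 of 16 fits, namely Son DMSO library A, B or D and Son tunicamycin library A or C (adjusted p 0.0505 to 0.139). The Psmb9 call (-0.31, adjusted p 0.0277) was lost without Son DMSO library C or D or Son tunicamycin library D (adjusted p 0.0755 to 0.108).

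The difference between these tunicamycin responses, tested as an interaction, was called for none of the 10 genes, where 0.827% of all genes were called higher and 0.855% lower. For Cd74 the response was smaller with the Son siRNA by 0.49 (SE 0.12, unadjusted p 0.000963, adjusted p 0.0521), just above the threshold. Its adjusted p ran from 0.0354 to 0.113 when a library was left out, and it was called without control DMSO library B (0.039), control tunicamycin library A (0.036) or Son tunicamycin library C (0.0354). With all libraries it was called with a pseudocount of 0.1 (0.0467), a mean of at least 5 (0.0425), median-ratio scaling (0.0429), quantile normalization (0.0401), array weights (0.0418) or a term for the column letter (0.0489). Cd74 was the only one of the 10 with an unadjusted p under 0.05 in this limma fit, against 2070 of all genes. The estimates for the other 9 lay between -0.10 and 0.06.

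Levels in DMSO differed by gene between the control sgRNA and the control siRNA. H2-K1 stood at 1509 to 1523 FPKM with the control sgRNA against 507 to 639.9 FPKM, and Cd74 at 72.8 to 88.4 FPKM against 16.5 to 20.8 FPKM, while Psmb10, at 37.6 to 43.4 FPKM against 42.3 to 47.2 FPKM, was not higher. The 2 experiments were not tested against each other, since experiment and delivery method cannot be told apart.

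The libraries labelled Son sgRNA differed from the control sgRNA mainly in Psmb8 and Cd74. In DMSO, Psmb8, Psmb9 and Tap1 were lower and Cd74 higher, where 9.1% of all genes were called higher and 5.29% lower (of called genes, 63.3% higher, and 47.0% after median-ratio scaling). Psmb8 was at 96.0, 88.7 and 94.4 FPKM with the control sgRNA and at 35.9, 38.3 and 50.3 FPKM in the labelled libraries. No labelled library came near the control range (-1.16, SE 0.10, adjusted p 1.98e-05, and -1.30 without library C). Tap1 was at 71.5, 75.7 and 75.9 FPKM against 61.3, 61.9 and 63.7 FPKM (-0.25, SE 0.06, adjusted p 0.0139), a call lost without control sgRNA library B or C in DMSO (adjusted p 0.0651 and 0.0643). Psmb9 went from 55.9 to 61.2 FPKM to 41.3 to 56.2 FPKM, with overlap through library C (-0.34, SE 0.10, adjusted p 0.0331), and its call was lost when a library was left out in 7 of 12 fits, namely any control sgRNA library in DMSO, control tunicamycin library A or B, or labelled DMSO library A or B (highest adjusted p 0.123).

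Cd74 was at 72.8, 88.4 and 87.0 FPKM with the control sgRNA and at 136, 149.0 and 168 FPKM in the labelled libraries in DMSO (0.86, SE 0.09, adjusted p 8.64e-05, and 0.78 without library C). All labelled libraries lay above all control libraries. Without library C, H2-K1 (-0.19, adjusted p 0.00346) and H2-D1 (-0.17, adjusted p 0.00751) were also called lower and Tapbp (0.15, adjusted p 0.0296) higher, while with it they were at -0.08, -0.06 and 0.18 and not called. Tapbp was also called without labelled DMSO library A (0.0405) or labelled tunicamycin library B (0.0441). Calls over all genes, 1614 with every library, ran from 738 to 2642 with a library left out. B2m, at 3219, 3346 and 4455 FPKM, was 0.09 with library C and -0.06 without it, and called in neither fit.

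In tunicamycin the labelled libraries showed the same 4 calls, where 2.59% of all genes were higher and 6.88% lower (of called genes, 27.3% higher, 45.1% after median-ratio scaling and 50.6% after quantile normalization). Psmb8 was at 88.3, 86.2 and 85.8 FPKM with the control sgRNA and at 33.4, 33.6 and 32.1 FPKM in the labelled libraries (-1.37, SE 0.10, adjusted p 6.02e-06). Psmb9 was lower by 0.49 (SE 0.10, adjusted p 0.00669) and Tap1 by 0.29 (SE 0.06, adjusted p 0.00715). Cd74 rose from 122 to 129 FPKM to 191 to 195 FPKM (0.60, SE 0.09, adjusted p 0.000965). Library C enters this comparison only through the shared estimate of the spread, and without it 8 genes were called lower, all but Tapbp and Cd74. The share of all genes called lower in that fit is not given here, so this count has no background to read it by. Calls over all genes moved too, from 1062 with every library to between 596 and 2286 with a library left out.

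Tunicamycin with the control sgRNA raised Tap1 and Cd74 and lowered Tapbp, where 24.2% of all genes were higher and 14.1% lower (of called genes, 63.2% higher, and 48.5% after median-ratio scaling). Cd74 rose by 0.61 (SE 0.09, adjusted p 0.000207) and Tapbp fell by 0.38 (SE 0.06, adjusted p 0.000397). Tap1 rose by 0.24 (SE 0.06, adjusted p 0.00576), and after median-ratio scaling by a difference of 0.17 that was not called (adjusted p 0.063). Its neighbour across the 225 bases, Psmb9, was at -0.14 and not called. Without library C, B2m (adjusted p 0.00586) and Psmb9 (0.0182) were called lower as well. Calls over all genes, 4297 with every library, ran from 3186 to 6164 with a library left out.

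In the libraries labelled Son sgRNA, tunicamycin raised Tap1 (0.20) and Cd74 (0.36, SE 0.09, adjusted p 0.00512) and lowered B2m, Tap2, Tapbp, Psmb8, Psmb9 and Psmb10, where 22.7% of all genes were higher and 26.7% lower. Tapbp fell by 0.52 (SE 0.06, adjusted p 2.51e-05). The B2m value moved from -0.37 (adjusted p 0.0363) to -0.22 (adjusted p 0.00119) without library C, and the Psmb8 value from -0.31 to -0.16. Calls of Psmb8 (adjusted p 0.064) and Psmb9 (0.0835) were lost without labelled tunicamycin library C, that of Psmb9 without labelled tunicamycin library B (0.0591), and that of Psmb10 without labelled tunicamycin library A (0.0662). The B2m call was lost when a library was left out in 9 of 12 fits, namely every library but the 3 labelled ones in DMSO (highest adjusted p 0.0983), and with a term for the column letter (0.0532). Fitting only the groups compared left calls for Cd74 and Tapbp alone, and quantile normalization turned H2-D1 from -0.10 to 0.24, called higher (adjusted p 0.00271). None of the 10 genes was called in the interaction, nor was any gene of the table (0.0% higher and 0.0% lower), where 907 genes and 1 of the 10 had an unadjusted p under 0.05 in limma.

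**Figure D2:**
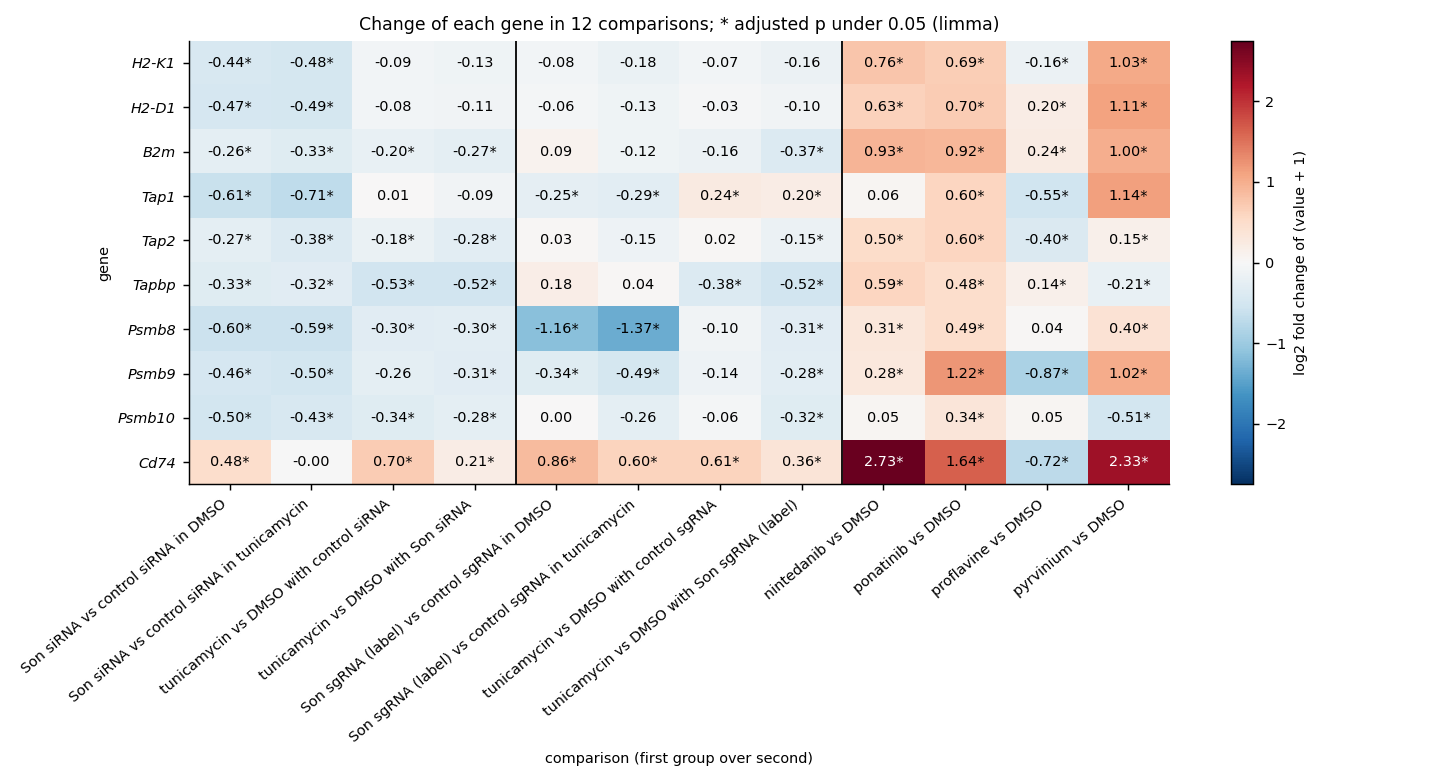
Log2 fold changes of (value + 1) for the 10 genes (rows) in the 12 group comparisons (columns), with an asterisk for an adjusted p under 0.05. The first 2 columns are negative for all genes but Cd74, which reads 0.48 in DMSO, while the ponatinib column is positive for all 10 and Cd74 reads 2.73 with nintedanib.

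The drugs gave the widest range, and Cd74 moved furthest with 3 of the 4, Psmb9 with proflavine. Over 24 h nintedanib raised 8 of the 10 genes, ponatinib all 10, and pyrvinium 8, while proflavine raised 3 and lowered 5. Of all genes, nintedanib was followed by 34.3% called higher and 22.1% lower, ponatinib by 41.1% and 21.4%, proflavine by 27.8% and 42.4%, and pyrvinium by 36.6% and 40.8%. Among called genes 60.8% were higher with nintedanib and 65.8% with ponatinib, against 45.2% and 48.2% after median-ratio scaling. Median-ratio scaling moved the median of all genes by -0.11 for ponatinib, and quantile normalization by -0.11 for both. Taken from the median of all genes, the 10 genes lay 0.01 to 2.69 above it with nintedanib and 0.24 to 1.55 above it with ponatinib. All 4 drugs share the same 3 DMSO libraries. The fibroblast marker sum was 5107 to 5143 TPM in DMSO, 3195 to 3246 TPM with nintedanib, 3379.7 to 3546 TPM with ponatinib, 3308 to 3456 TPM with proflavine and 897 to 1058 TPM with pyrvinium, and its part in the drug results was not tested.

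Cd74 was at 54.0, 57.0 and 65.0 TPM in DMSO. With nintedanib it was at 383, 402 and 394 TPM (log2 fold change 2.73, SE 0.07, adjusted p 3.12e-13), with pyrvinium at 317, 312 and 268 TPM (2.33, SE 0.07, adjusted p 1.92e-13) and with ponatinib at 178, 189.9 and 187 TPM (1.64, SE 0.07, adjusted p 7.03e-11). With proflavine it fell to 35.0, 37.0 and 33.2 TPM (-0.72, SE 0.07, adjusted p 2.07e-07). No 2 of the 5 groups overlapped, and the order was nintedanib, pyrvinium, ponatinib, DMSO, proflavine. Doses differed between the drugs, at 1 dose each. At these doses Cd74 was higher with nintedanib than with pyrvinium by 0.40 (SE 0.07, adjusted p 8.02e-05), and with ponatinib it was lower than with pyrvinium by 0.69 (SE 0.07, adjusted p 2.49e-07).

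The heavy chains and B2m rose with nintedanib, ponatinib and pyrvinium. H2-K1 was at 1355, 1399 and 1418 TPM in DMSO, 2372, 2356 and 2356 TPM with nintedanib, 2277, 2136 and 2299.9 TPM with ponatinib and 3008, 2888 and 2661 TPM with pyrvinium. None of these groups overlapped, and the log2 fold changes over DMSO were 0.76, 0.69 and 1.03 (SE 0.04 each, adjusted p at most 2.76e-09). H2-D1 rose by 0.63, 0.70 and 1.11. B2m rose by 0.93, 0.92 and 1.00, from 3368 to 3666 TPM to between 6350.4 and 7079 TPM. With proflavine H2-K1 fell by 0.16 (adjusted p 0.00259), while H2-D1 rose by 0.20 (adjusted p 0.000152) and B2m by 0.24 (adjusted p 7.41e-05). The H2-K1 fall was not called after median-ratio scaling (-0.08, adjusted p 0.143) and the H2-D1 rise not after quantile normalization (0.07, adjusted p 0.213).

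Transporter genes separated the drugs. Tap1 was at 60.6, 66.2 and 68.9 TPM in DMSO and at 64.6, 71.8 and 68.2 TPM with nintedanib, which overlapped (0.06, SE 0.06, adjusted p 0.368, and -0.025 after median-ratio scaling). It rose to 98.1, 96.1 and 104 TPM with ponatinib (0.60, SE 0.06, adjusted p 4.25e-07) and to 146, 143 and 145 TPM with pyrvinium (1.14, SE 0.06, adjusted p 9.3e-11). With proflavine it fell to 44.7, 47.6 and 40.8 TPM (-0.55, SE 0.06, adjusted p 7.43e-07). The Tap1 level was lower with nintedanib than with ponatinib by 0.54 (SE 0.06, adjusted p 1.84e-06), and lower with ponatinib than with pyrvinium by 0.54 (SE 0.06, adjusted p 5.92e-07).

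Tap2 rose with nintedanib (0.50) and ponatinib (0.60) and fell with proflavine (-0.40). With pyrvinium its groups overlapped (0.15, SE 0.06, adjusted p 0.0414), and that call was lost when a library was left out in 7 of 15 fits, namely DMSO library 1 or 2, any ponatinib library, or pyrvinium library 1 or 2 (highest adjusted p 0.222). Tapbp rose with nintedanib (0.59) and ponatinib (0.48), and with proflavine by 0.14 (adjusted p 0.0229), a call lost without DMSO library 1 (0.107) or proflavine library 1 or 2 (0.078 and 0.0857). With pyrvinium it fell by 0.21 (SE 0.05, adjusted p 0.0015, and not called under quantile normalization, adjusted p 0.122) while the heavy chains it serves rose.

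Psmb9 had the widest range of the immunoproteasome subunits. It was at 40.3, 44.4 and 41.0 TPM in DMSO, 47.6, 49.8 and 56.4 TPM with nintedanib, 100.4, 92.6 and 103 TPM with ponatinib, 97.6, 86.7 and 75.6 TPM with pyrvinium and 21.4, 24.0 and 21.8 TPM with proflavine. Only ponatinib and pyrvinium overlapped among these groups. The log2 fold changes over DMSO were 0.28 (adjusted p 0.00944, and 0.0539 without nintedanib library 3), 1.22 (SE 0.08, adjusted p 1e-08), 1.02 (SE 0.08, adjusted p 2.17e-08) and -0.87 (SE 0.08, adjusted p 2.2e-07). The nintedanib level lay below that with ponatinib by 0.93 (SE 0.08, adjusted p 2.34e-07).

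Psmb8 rose with nintedanib (0.31), ponatinib (0.49) and pyrvinium (0.40) and was at 0.04 with proflavine (adjusted p 0.542). Psmb10 rose with ponatinib (0.34, adjusted p 0.00254), was at 0.05 with nintedanib (-0.036 after median-ratio scaling) and with proflavine, and fell with pyrvinium by 0.51 (SE 0.08, adjusted p 4.23e-05), from 61.7, 75.3 and 69.1 TPM to 52.0, 48.3 and 43.1 TPM without overlap. Pyrvinium thus left one immunoproteasome subunit lower while the other two were higher.

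**Figure D3:**
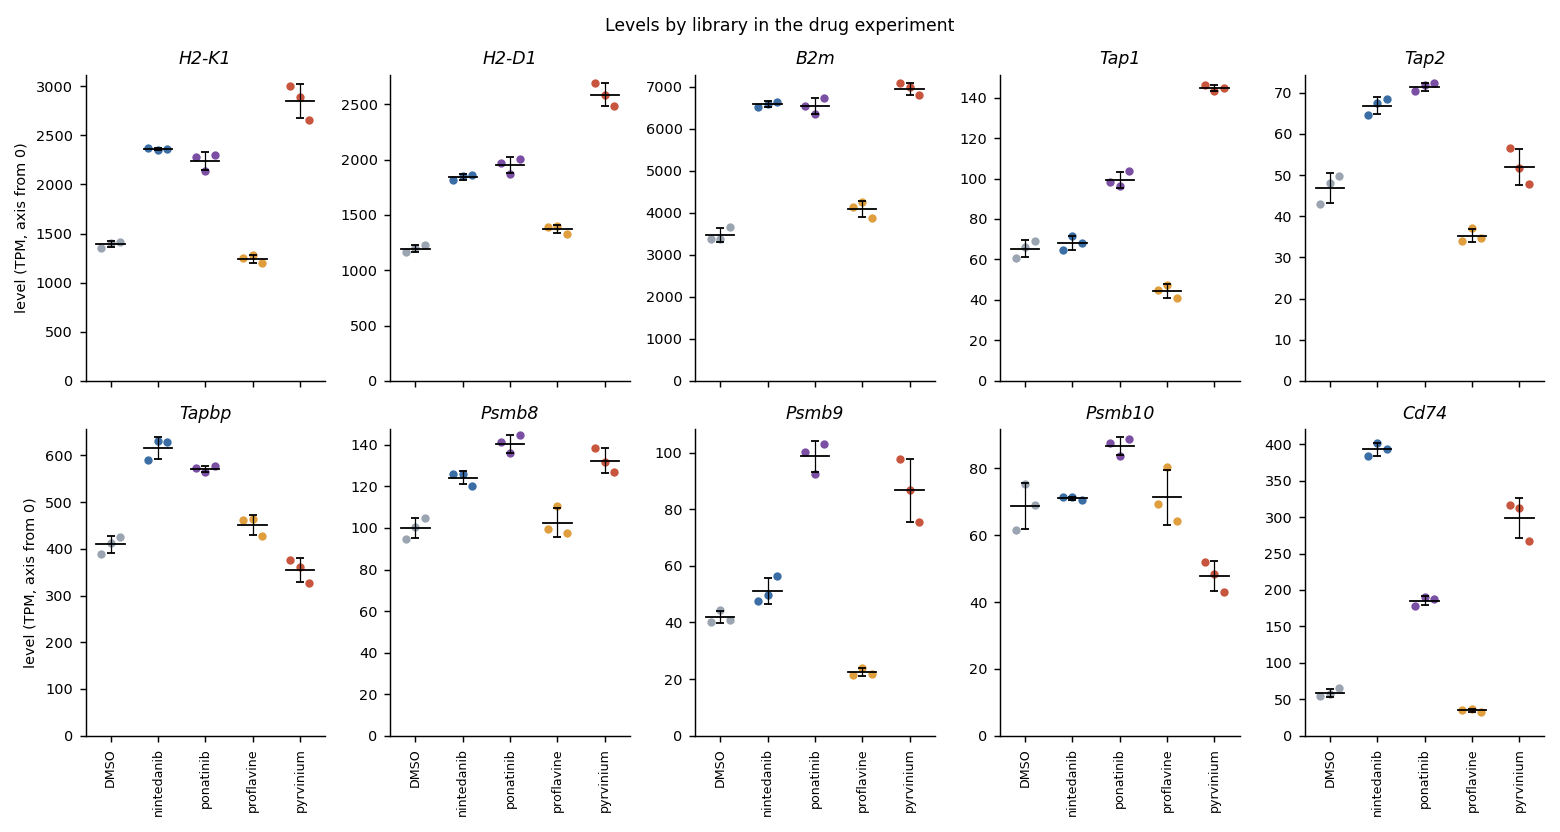
Levels in TPM (linear axis from 0) of the 10 genes in the 5 groups of the drug experiment. Each point is a library, the bar is the group mean and the whisker 1 SD. Cd74 stands at 383 to 402 TPM with nintedanib against 54.0 to 65.0 TPM in DMSO, and Tap1 reaches 143 to 146 TPM with pyrvinium but overlaps DMSO with nintedanib.

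Of the 6 pairs of drugs set against each other, nintedanib against ponatinib gave 1 gene higher and 4 lower (of all genes 26.1% and 33.8%), and nintedanib against pyrvinium gave 4 and 4 (46.6% and 32.2%). Ponatinib against pyrvinium gave 4 and 4 (48.1% and 29.5%), nintedanib against proflavine 9 and 0 (49.6% and 26.1%), ponatinib against proflavine 10 and 0 (51.1% and 28.0%), and proflavine against pyrvinium 2 and 8 (36.7% and 41.1%). After median-ratio scaling the share of higher among called genes went from 65.5% to 51.0% for nintedanib against proflavine, from 59.1% to 49.1% for nintedanib against pyrvinium, from 64.6% to 50.2% for ponatinib against proflavine and from 62.0% to 49.6% for ponatinib against pyrvinium, with shifts of the median of all genes from -0.12 to -0.18. Cd74 was the gene higher with nintedanib than with ponatinib (1.08, SE 0.07, adjusted p 6.92e-09).

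Each inducible subunit was also set against the constitutive subunit it replaces, as a log2 ratio of (value + 1) per library. The Son siRNA lowered all 3 ratios in DMSO. Psmb8 over Psmb5 went from -1.89 ± 0.15 (SD, n = 4) to -2.59 ± 0.16, Psmb9 over Psmb6 from -3.66 ± 0.21 to -4.10 ± 0.16, and Psmb10 over Psmb7 from -2.05 ± 0.06 to -2.58 ± 0.08. No groups overlapped, with a two-sided exact permutation p of 0.0286 each, the smallest that 4 against 4 libraries allow (0.0381 after Benjamini-Hochberg adjustment over 12 tests). In tunicamycin the ratios were lower with the Son siRNA by 0.78, 0.56 and 0.55, at the same exact p. Psmb5, Psmb6 and Psmb7 themselves were at 0.10, -0.01 and 0.03 with the Son siRNA in DMSO and not called. In tunicamycin they were at 0.19, 0.05 and 0.11 with the Son siRNA. There Psmb5 (adjusted p 0.000604 in limma) and Psmb7 (0.0038) were called higher, which adds to the lower ratios.

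With 3 against 3 libraries the exact test cannot go below 0.1, so the other ratios are values without a test. In the libraries labelled Son sgRNA, Psmb8 over Psmb5 was lower by 1.32 in DMSO and by 1.33 in tunicamycin. Library C did not stand apart in these ratios, and without it the DMSO difference was -1.34. Ponatinib libraries lay above DMSO by 0.57, 1.42 and 0.65 for the ratios of Psmb8, Psmb9 and Psmb10, and nintedanib libraries by 0.48, 0.70 and 0.34. These differences also hold falls of the constitutive subunits. Psmb5, Psmb6 and Psmb7 were at -0.17, -0.42 and -0.28 with nintedanib, all called lower, while Psmb10 was at 0.05 and not called. With ponatinib Psmb5 was at -0.08 and not called, and Psmb6 (-0.20) and Psmb7 (-0.32) were called lower. Pyrvinium libraries lay above DMSO for Psmb9 over Psmb6 (1.01) and below it for Psmb10 over Psmb7 (-0.54), with no overlap in either. Proflavine libraries lay below DMSO for Psmb9 over Psmb6 (-0.93).

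**Figure D4:**
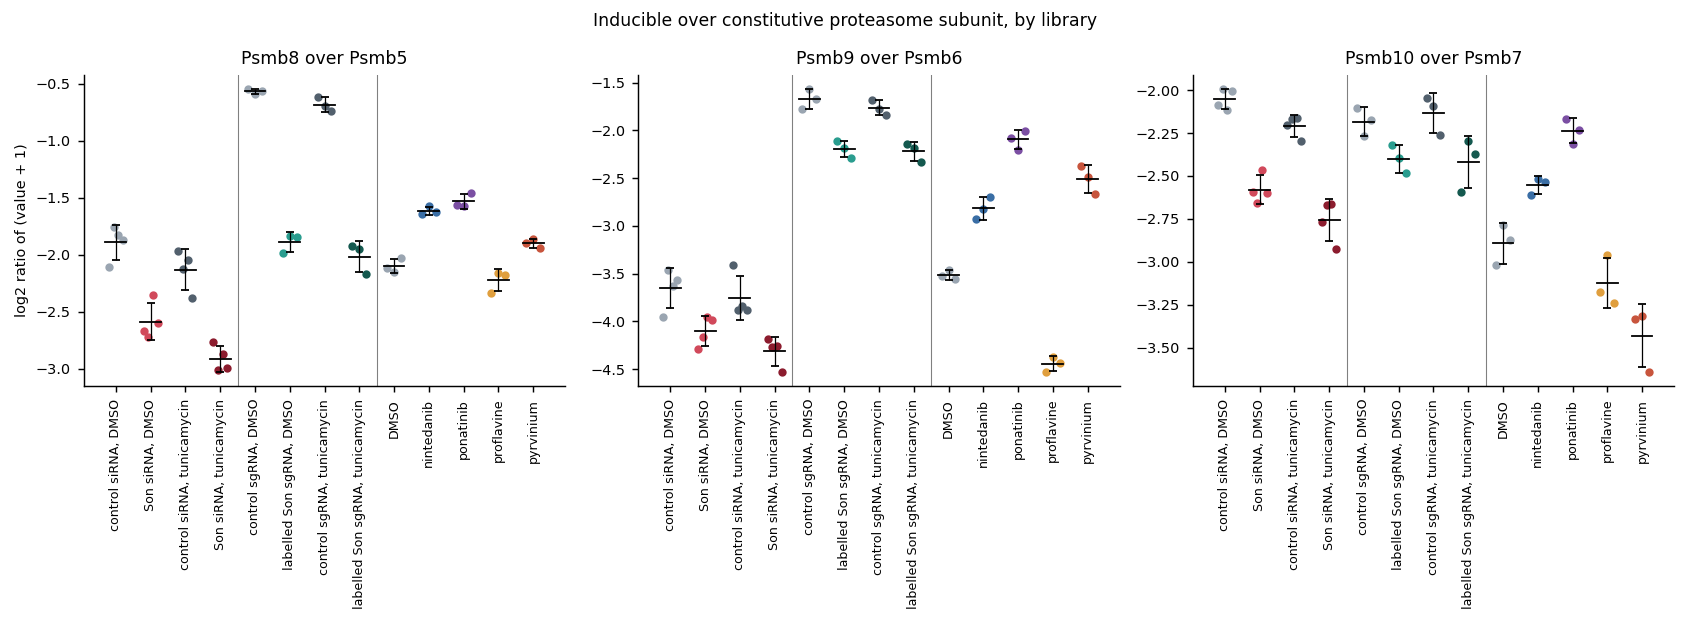
Log2 ratio of (value + 1) of each inducible subunit over its constitutive counterpart, by library in all 13 groups. Points are libraries, bars are means and whiskers 1 SD, and grey lines part the 3 experiments. Psmb8 over Psmb5 lies near -0.57 with the control sgRNA in DMSO and near -1.89 in the labelled libraries, and Psmb9 over Psmb6 runs within the drug experiment from -4.44 with proflavine to -2.10 with ponatinib.

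Other class I and class I-like genes were counted as a list. Of 17 tested, 13 were lower and 0 higher with the Son siRNA in DMSO, against 16.1% and 20.0% of all genes (list median -0.40), led by H2-Q9 (-0.79, adjusted p 0.000826), H2-T9 (-0.64) and H2-Q8 (-0.64). In tunicamycin 14 were lower and 1 higher, against 20.4% and 30.6% of all genes. Genes of the H2-Q and H2-T families can share reads as near copies, so their separate values are uncertain. With the Son sgRNA label 6 of 19 were lower in DMSO and 1 in tunicamycin (Mr1, -0.41, adjusted p 0.0179), against 5.29% and 6.88% of all genes. Nintedanib raised 14 of 16 (34.3% of all genes, list median 0.59), ponatinib 12 with 2 lower (41.1% and 21.4%), and pyrvinium 10 with 3 lower (36.6% and 40.8%), led by H2-Q9 (1.57) and H2-M3 (1.55). Under proflavine 3 were higher and 4 lower (27.8% and 42.4%), the largest being Cd1d1 (-1.34, adjusted p 7.56e-09).

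Constitutive proteasome genes gave other counts than the inducible subunits. Of 14 constitutive core genes, 1 was lower with the Son siRNA in DMSO (Psmb4, -0.10, adjusted p 0.0243), against 16.1% of all genes, and in tunicamycin 11 were higher (30.6% of all genes, list median 0.14), led by Psma2 (0.21). Nintedanib lowered 14 of 14 (22.1% of all genes, list median -0.30) and ponatinib 12 of 14 (21.4%, list median -0.26), while Psmb8 and Psmb9 rose with both. The PA28 activator genes Psme1 (-0.46, adjusted p 4.53e-07) and Psme2 (-0.24) fell with the Son siRNA in DMSO. They were among 5 lower and 3 higher of 14 genes of peptide loading and trimming, against 16.1% and 20.0% of all genes (list median -0.07). Tunicamycin raised the chaperones of that list, with Calr at 1.67, Pdia3 at 1.21 and Canx at 0.79 with the control siRNA, while Tapbp and B2m fell. Pyrvinium lowered 8 of the 14 and raised 4, against 40.8% and 36.6% of all genes, Pomp (-0.84), a proteasome assembly factor, furthest.

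Among 27 regulators of MHC transcription, the Son siRNA in DMSO raised 13 and lowered 6, against 20.0% and 16.1% of all genes. Among those that fell were the interferon regulatory factor Irf7 (-0.84, adjusted p 1.86e-05) and Nlrc5 (-0.54, adjusted p 2.03e-05), the class I transactivator. Nlrc5 was at 7.45 to 8.68 FPKM with the control siRNA and 4.66 to 5.72 FPKM with the Son siRNA. Nintedanib raised Nlrc5 (0.98) and lowered Irf7 (-0.93), and ponatinib raised Nlrc5 (0.68). Irf7 rose with pyrvinium (1.90) and with proflavine (1.53), drugs after which H2-K1 went in opposite directions. What part these regulators have in the changes was not tested.

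Most class II genes were low. Of 18 in the list with the invariant chain's partners, 6 to 9 reached a mean of 1. Of 9 tested, nintedanib raised 5 and lowered 2 (34.3% and 22.1% of all genes), and ponatinib 3 and 3 (41.1% and 21.4%). Pyrvinium raised 3 and lowered 4 (36.6% and 40.8%), and proflavine 3 and 3 (27.8% and 42.4%). Of 6 tested in the siRNA experiment, tunicamycin lowered 4 with the control siRNA (42.4% of all genes) and 5 with the Son siRNA (41.1%), where Cd74 rose. Nintedanib raised H2-DMb1 (1.55) and H2-DMa (1.52), chains of the peptide editor of class II, and Ctsl (1.09), a protease that cuts Cd74. Ponatinib raised H2-DMb1 (1.67) and H2-DMa (0.91), whereas pyrvinium, which raised Cd74 by 2.33, lowered H2-DMa (-0.85). Mif, a ligand of Cd74 at the cell surface, fell with ponatinib (-1.04), pyrvinium (-0.85) and proflavine (-0.66). With the Son sgRNA label H2-DMa was lower in DMSO (-0.39) and in tunicamycin (-0.50), where Cd74 was higher.

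Immune cell markers were set beside the rise of Cd74. The sum of 10 macrophage and monocyte markers was 12.5 to 14.1 TPM in DMSO, 25.2 to 27.5 TPM with nintedanib, 21.3 to 24.6 TPM with ponatinib, 15.7 to 20.0 TPM with pyrvinium and, where Cd74 fell, 18.7 to 19.6 TPM with proflavine, with C1qa and C1qb at 0 in all libraries and 3 of the 10 at a mean of at least 1. The 6 dendritic cell markers summed to 2.73 to 2.82 TPM in DMSO and 4.37 to 6.85 TPM with nintedanib, with Clec9a and Siglech at 0. The 6 B cell markers summed to at most 0.622 TPM. Ptprc, which all these cells carry, was at most 0.0191 TPM with nintedanib and 0 in every ponatinib library. In the siRNA experiment the macrophage sum was 13.2 to 14.2 FPKM with the control siRNA and 10.6 to 12.3 FPKM with the Son siRNA in DMSO, the opposite direction to Cd74. In the CRISPRa experiment it was 10.3 to 12.4 FPKM with the control sgRNA and 11.3 to 16.8 FPKM with the Son sgRNA label, both in DMSO. The part of such cells in the Cd74 values was not tested.

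The relation of Cd74 to the other 9 genes differed between the experiments. Its Pearson r with their mean was -0.587 in the siRNA, -0.768 in the CRISPRa and 0.886 in the drug experiment. The 9 did not all move as a unit. Within the drug experiment the r with their mean was -0.013 for Psmb10 and 0.313 for Tapbp, and at least 0.829 for the others. In the siRNA experiment the control group in DMSO had the highest mean of the 9, with 1 control tunicamycin library inside its range, and its 4 libraries had the lowest Cd74. In the drug experiment the nintedanib, ponatinib and pyrvinium libraries were above DMSO in both, and the proflavine libraries were below it in Cd74.

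**Figure D5:**
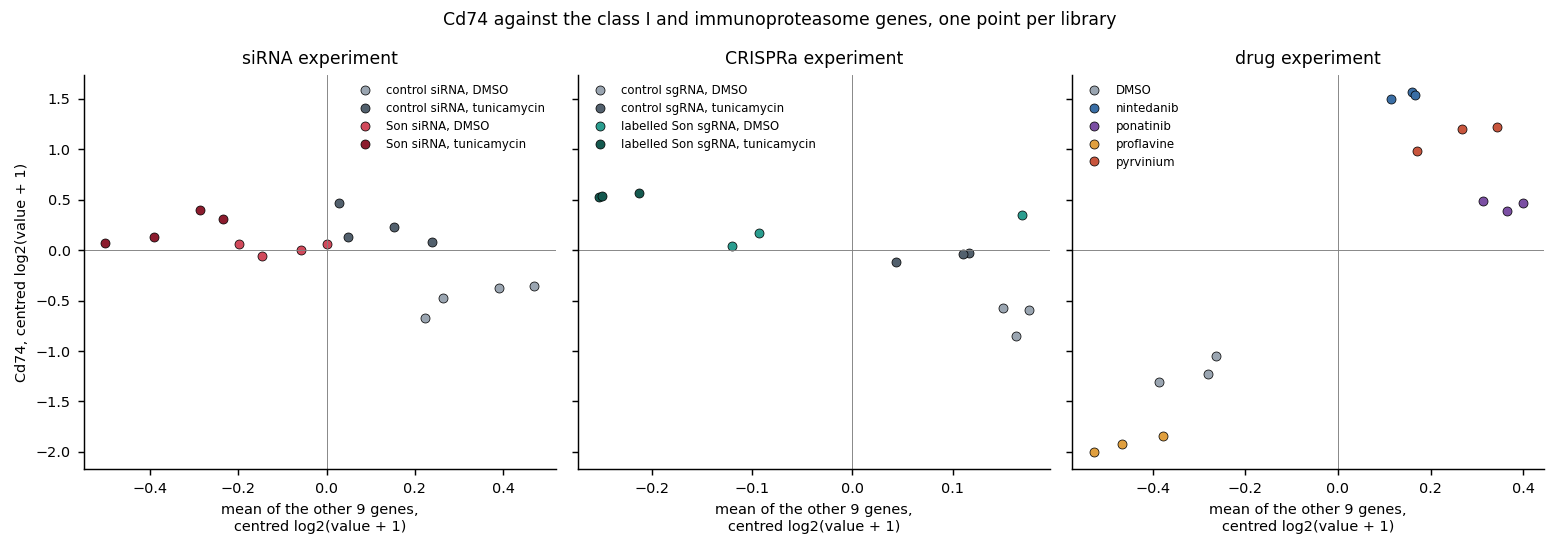
Cd74 (vertical axis) against the mean of the other 9 genes (horizontal axis), both as log2(value + 1) centred on the mean of each experiment, with 1 point per library coloured by group. Control siRNA libraries in DMSO sit at the lower right, with Cd74 from -0.67 to -0.36, while in the drug experiment nintedanib libraries sit at the upper right, with Cd74 from 1.497 to 1.564.

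Over all 43 libraries, centred within each experiment, the mean of the 9 was most like H2-T22, a further class I gene (Pearson r 0.941), followed by Slc44a2 (0.895), Naglu (0.890), Pgls (0.886) and Git1 (0.883), among 10108 genes tested in all experiments. Cd74 was most like Optn (0.962), Emp2 (0.953), Gdpd1 (0.936), Mreg (0.929) and Fbxl2 (0.924). Within the siRNA experiment alone the r of Cd74 with Optn was 0.499 and with Fbxl2 0.0512, against 0.996 and 0.984 within the drug experiment. The r of Git1 with the mean of the 9 was 0.950 within the siRNA and 0.948 within the drug experiment but 0.00185 within the CRISPRa experiment. These r describe libraries that share groups and tables, and the drug groups have the widest spread.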

How the data were processed

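Values deposited by the authors were FPKM for both Son experiments and TPM for the drugs, scaled per transcript length and library. The log2 scale was applied here to the deposited values. Per the submitters' processing notes the build was mm10 and the tools named were Cufflinks, HISAT2, Salmon, Trim Galore and Trimmomatic. For none of them is the role, version or annotation stated in the labels. FPKM columns name the group and a letter, which matches no label's number. In FPKM, 27 date-like entries were left out. With repeated symbols the row of highest mean was kept. Values were tested as log2(value + 1) with limma 3.58.1 in R 4.3.3 (a term per group, mean trend, no block, two-sided), separately for each experiment, over genes with a mean of at least 1, with Benjamini-Hochberg adjustment per comparison. The steps were tested on simulated data. The members and gene lists were chosen with earlier results of these data known. Named genes are the 10 members, Son, Psmb5, Psmb6, Psmb7, up to 3 called genes of largest change per list and comparison, and the 5 genes most like each pattern. One gene that this rule names is not reported here. Lists counted here hold other class I genes, peptide loading and trimming, the constitutive proteasome core, class II with invariant chain partners, and regulators of MHC transcription. Alternatives were a pseudocount of 0.1, no filter or a mean of 5, median-ratio and quantile scaling, no trend, array weights, only the groups compared, each library left out, and a replicate block for the drugs. A block by column letter in both Son experiments was added after seeing the data.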

Additional observations from a re-analysis of the deposited data

Results flagged for a closer look

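With the control siRNA in tunicamycin, 1 of the 4 libraries (A) had a log2 ratio of Psmb9 to Psmb6 of -3.41, far above the other 3, which lay from -3.88 to -3.84. It was the only one of 52 group values of 4 libraries (members and subunit ratios) set apart by its gap to the nearest library. Chance alone sets apart about 1 in 20 such groups.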

How the results depend on the processing

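Of 2988 repeats of a gene's comparison under another setting, 2833 kept direction and side of the threshold, 76 lost the call, 45 gained one and 34 changed sign. Causes of these shifts were not tested. The shares of all genes called higher or lower under each setting are not set beside the counts below. Cd74 with the Son siRNA in tunicamycin became 0.0030 (quantile) and 0.077 (array weights), and -0.060 to 0.079 with a library left out. For tunicamycin with the control siRNA, 3 genes were lower after median-ratio scaling and 3 to 6 with a library left out, B2m became 0.064 (quantile) and Tap1 ran from -0.032 to 0.050. With the Son siRNA, 0 genes were higher without the filter and 0 to 1 with a library left out. The siRNA interaction gave 1 lower gene, Cd74, with a pseudocount of 0.1, a mean of 5, median-ratio, quantile or array weights, and 0 to 1 with a library left out.

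For the Son sgRNA label in DMSO, 2 genes were higher without the filter, without the trend or with array weights, and 5 lower with quantile or array weights. Leaving out a library gave 1 to 2 higher and 1 to 5 lower. B2m became -0.032 (array weights; -0.056 to 0.18 with a library left out), Tap2 -0.016 (median-ratio) and -0.040 (quantile; -0.0058 to 0.054), and Psmb10 -0.042, -0.068 and -0.097 (median-ratio, quantile, array weights; -0.097 to 0.056). In tunicamycin 7 (array weights), 5 (only the groups compared) or 3 to 8 (a library left out) were lower. Tunicamycin with the control sgRNA gave 1 higher (median-ratio), 4 lower (array weights, or only the groups compared) and 1 to 3 lower with a library left out, with H2-D1 0.056 and B2m 0.14 (quantile) and Tap2 -0.048 (median-ratio). With the Son sgRNA label it gave 1 higher and 1 lower (only the groups compared) and 3 to 6 lower with a library left out, with H2-K1 0.14 and H2-D1 0.24 (quantile, adjusted p 0.00271 in limma), and H2-D1 -0.16 to 0.0069.

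With nintedanib, Tap1 became -0.025 (median-ratio) and Psmb10 -0.036 (median-ratio) and -0.0074 (quantile; -0.020 to 0.12 with a library left out). Proflavine gave 1 higher (quantile), Psmb8 -0.018 to 0.070 and Psmb10 -0.038 to 0.12. Pyrvinium gave 1 lower (quantile). Nintedanib against ponatinib gave 2 higher (median-ratio, quantile, or only the groups compared), 3 (array weights) and 1 to 2 with a library left out. Over all genes, leaving out a library moved the calls to 24 to 324 (siRNA interaction, from 183), 738 to 2642 (label in DMSO, from 1614) and 596 to 2286 (label in tunicamycin, from 1062).

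Same-numbered drug libraries deviated together (correlation over 0.1) in 2 of 30 pairs, a count that cannot exclude that the numbers mark pairs or batches. Under the replicate block, Tap2 with pyrvinium kept 0.15 but not its call (adjusted p 0.0527 in limma). The FPKM columns carry letters, not the labels' numbers, and a replicate block by letter was chosen after seeing the data. Same-lettered libraries deviated together in 3 of 24 pairs in the siRNA and 1 of 18 in the CRISPRa experiment. These counts cannot exclude that the letters mark pairs or batches. Under that block the siRNA interaction gave 1 lower gene (Cd74, adjusted p 0.0489 in limma) and 285 calls over all genes, and B2m with tunicamycin and the Son sgRNA label lost its call (0.0532). Without read counts the depth, and with it the precision of low values, is unknown.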

Other observations

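Class II chains stayed low beside Cd74. These genes were chosen after their values were seen, and no test is given. With nintedanib, where Cd74 was 393 ± 9.15 TPM (SD, n = 3), H2-Aa was 3.90 ± 1.64 TPM against 0.309 ± 0.10 TPM in DMSO. H2-Ab1 was 13.6 ± 1.21 TPM against 8.16 ± 1.56 TPM. With pyrvinium, where Cd74 was 299 ± 27.1 TPM, H2-Aa was 0.0396 ± 0.035 TPM and H2-Ab1 7.71 ± 1.08 TPM. Ciita, the class II transactivator, did not pass 0.0343 TPM in any drug library or 0.0169 FPKM in any other.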
